A study of Mus musculus with 8 samples.

Results

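The genes described here encode 9 proteins of the cell surface by which multipotent, common lymphoid and B-biased progenitors of mouse bone marrow are told apart: Flt3, Kit, Ly6d, Ly6a, Cd27, Cd34, Cd93, Cd24a and Ptprc. They were taken by name, matched to Ensembl IDs through GENCODE M1, and are 9 of the 37991 gene IDs in the count table. RNA came from 4 pools of H2afy-/- mice (group H2afy_KO) and 4 pools of H2afy+/+ mice (group H2afy_WT), all of 5 to 12 weeks of age. The product of H2afy is macroH2A1, a histone variant, and the design of the deleted allele and the strain are not stated in the labels. Every pool held RNA of 5000 to 15000 B-cell-biased lymphoid progenitors (BLPs) from 2 or 3 animals. Marrow was first enriched on Kit beads, and the BLPs were then sorted by flow cytometry. The labels list no antibodies for the sort. The pools hold 21330088 to 29029765 gene counts.

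Blood progenitors are sorted by antibodies to such surface proteins. Kit and Flt3 are receptor tyrosine kinases: Kit binds stem cell factor and is highest on stem cells and early progenitors, and Flt3 binds Flt3 ligand and marks the lymphoid-primed branch. Common lymphoid progenitors carry Flt3 and the interleukin-7 receptor with low Kit and low Sca-1, the product of Ly6a, and among them Ly6d separates cells biased to the B lineage from those that keep other lymphoid fates. Because the cells were enriched by Kit protein and then sorted, the levels below describe cells already chosen on the surface, and RNA and surface protein need not move together. In pooled cells, fewer cells of a type and less RNA per cell cannot be told apart.

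A read of 50 bases can be placed in a single gene only where that stretch occurs once in the genome, and this differed among the 9 genes. All 9 lie on NCBIM37, the assembly of mm9, as protein-coding genes. Cd24a (ENSMUSG00000047139) lies at chr10:43298975-43304068 on the plus strand. Of its 1764 windows of 50 bases, 373 (21.1%) also occur outside the gene, all 373 of them on chromosome 14 inside the annotated span of Hs6st3, and 6 also on chromosome 3. Ly6a (ENSMUSG00000075602) lies at chr15:74825308-74828064 on the minus strand. It shared 88 of 770 windows (11.4%), all of them on chromosome 15, where Ly6i, Ly6c1 and Ly6c2 lie. Ly6d (ENSMUSG00000034634, chr15:74592486-74593997, minus strand), Kit, Cd34 and Ptprc shared 0 windows, and Flt3, Cd27 and Cd93 shared 0.209%, 0.187% and 1.52%. The coding sequences of the genes that shared most windows, and of Ly6d for contrast, are shown from the GENCODE M1 transcripts of NCBIM37, 5′ to 3′ in the sense of the transcript. Capitals mark bases inside a window of 50 that also occurs elsewhere in the genome, the whole coding sequence being given for Cd24a and the first 150 bases for Ly6a and Ly6d.
Cd24a: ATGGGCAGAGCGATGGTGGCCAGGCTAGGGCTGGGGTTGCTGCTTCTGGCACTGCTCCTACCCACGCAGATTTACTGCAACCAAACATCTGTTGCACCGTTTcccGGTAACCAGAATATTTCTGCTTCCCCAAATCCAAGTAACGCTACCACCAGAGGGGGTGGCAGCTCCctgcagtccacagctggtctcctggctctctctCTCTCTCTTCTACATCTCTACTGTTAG
Ly6a: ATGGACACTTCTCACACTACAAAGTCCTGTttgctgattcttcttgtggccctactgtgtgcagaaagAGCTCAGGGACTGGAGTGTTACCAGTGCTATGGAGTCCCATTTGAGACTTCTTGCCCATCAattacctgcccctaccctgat
Ly6d: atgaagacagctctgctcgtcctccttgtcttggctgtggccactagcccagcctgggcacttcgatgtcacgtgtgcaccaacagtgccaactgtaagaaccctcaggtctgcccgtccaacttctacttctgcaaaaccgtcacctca
Of the 231 coding bases of Cd24a, 195 are in capitals, against 0 in Ly6d. Untranslated bases inside such windows, not shown, number 962 in Cd24a, 131 in Ly6a and 0 in Ly6d. The labels do not state how reads with several places were counted, so levels of Cd24a and Ly6a are uncertain to that extent.

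Other positions on NCBIM37 are as follows. Kit (ENSMUSG00000005672) spans chr5:75970941-76052747 on the plus strand and Flt3 (ENSMUSG00000042817) spans chr5:148142317-148212065 on the minus strand. Cd27 (ENSMUSG00000030336) spans chr6:125182640-125187028 on the minus strand and Cd93 (ENSMUSG00000027435) spans chr2:148262376-148269299 on the minus strand. Cd34 (ENSMUSG00000016494) spans chr1:196765015-196787486 on the plus strand and Ptprc (ENSMUSG00000026395) spans chr1:139959438-140071882 on the minus strand. An exon of Cd34 overlaps one of Gm16897 on the opposite strand, and the library kit does not mark strand, so reads there cannot be assigned to one gene. The other 8 genes have 0 exons that overlap another annotated gene.

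All 9 genes were expressed in every pool. To compare genes, CPM, counts relative to the TMM-scaled library total, were divided by the kilobases of annotated exon to give RPKM. Ly6d stood highest, with 1371 ± 419 RPKM in the H2afy_KO pools, against 1069 ± 242 RPKM in the H2afy_WT pools (SD, n = 4 each), and ranked 44 among 13722 genes tested by its mean over the 8 pools. It lay above Ly6a in 8 of 8 pools. Ly6a, with 367 ± 312 RPKM in the H2afy_KO pools, against 145 ± 50.6 RPKM in the H2afy_WT pools (SD, n = 4 each), lay above Flt3 in only 4 of 8 pools, so this order did not hold beyond the spread. Flt3 had 165 ± 23.9 RPKM in the H2afy_KO pools, against 159 ± 14.7 RPKM in the H2afy_WT pools (SD, n = 4 each), above Cd34 in 8 of 8 pools. Below Flt3, neighbours in the order Cd34, Cd24a, Cd27, Ptprc and Cd93 changed places between pools, each above the next in 5, 6, 5 and 4 of 8 pools. Kit stood lowest of the 9, at 44.0 ± 2.50 RPKM in the H2afy_KO pools, against 52.7 ± 6.87 RPKM in the H2afy_WT pools (SD, n = 4 each), and was below Cd93 in 8 of 8 pools. The pattern of high Ly6d and Flt3 RNA with lower Kit RNA was thus present in all 8 pools, and in these RPKM values the gene of the bead enrichment was the least abundant of the 9.

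**Figure D1:**
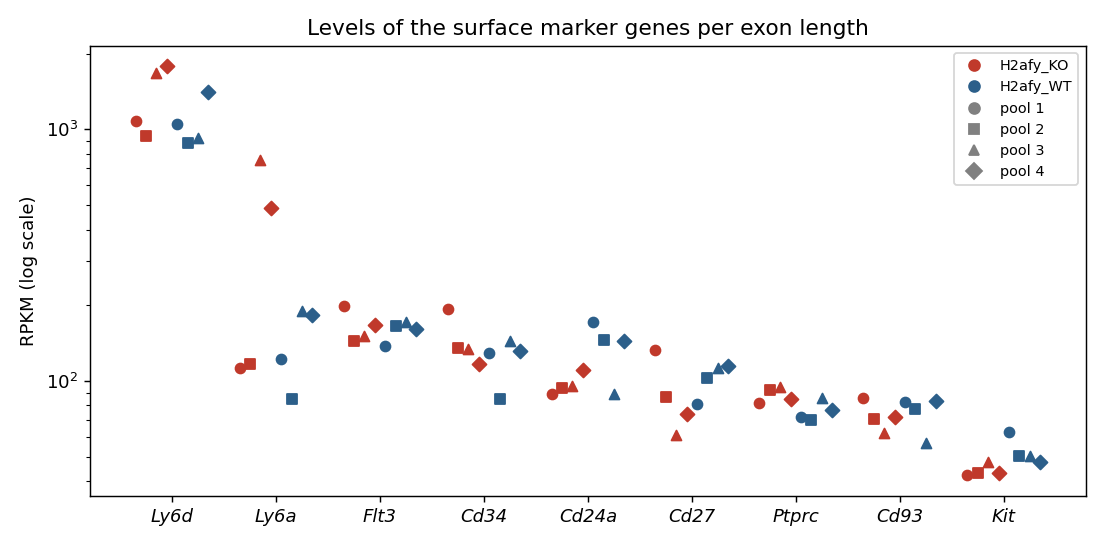
RPKM (log scale) of the 9 surface genes in each pool, H2afy_KO in red to the left and H2afy_WT in blue to the right, marker shape giving the replicate number; genes run from the highest to the lowest mean. Ly6d lies at the top in all 8 pools and Kit lies below Cd93 in all 8, while Ly6a spreads most within H2afy_KO.

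Between genotypes, none of the surface genes passed the test. In 4 of the 9 the log2 fold change was larger in size than the SD within genotypes. These were Kit (-0.26 against an SD of 0.14), Ptprc (0.21 against 0.12), Cd24a (-0.50 against 0.31) and Ly6a (1.34 against 1.07). The share of all genes for which this holds was not computed, so the count is a description only. Ly6a became -0.33 without H2afy_KO 3 and 4. In the edgeR quasi-likelihood test with Benjamini-Hochberg adjustment, 0 of the 9 genes passed the threshold of 0.05, as did 0 of all 13722 genes tested (0%). At an unadjusted p under 0.05 stood 1 of the 9, Cd24a, beside 7.58% of all genes, while DESeq2 called 0 of the 9 and 0.875% of all genes (0.335% higher and 0.54% lower). All of these unadjusted calls over the table divide into 3.88% higher and 3.69% lower. With the replicate block 0 of the 9 were called, beside 0.0292% of all genes higher and 0.0802% lower, 0.109% in all. DESeq2 with that block also called 0 of the 9, beside 3.3% of all genes, 1.7% higher and 1.61% lower. In 0 of the 9 genes did the genotypes stand apart without overlap, beside 4.53% of all genes, 2.18% with H2afy_KO above and 2.35% with it below. Of the 9 fold changes 5 were positive and 4 negative, and their median on the log2 scale was 0.06, beside 0.00 for all genes. The labels do not say whether the pools share animals, so a p-value here reflects only how these pools vary, which may be technical.

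H2afy itself, the deleted gene, averaged 1659 ± 238 CPM in the H2afy_KO pools, against 2267 ± 288 CPM in the H2afy_WT pools (SD, n = 4 each), so that 73.2% of the H2afy_WT level was counted in H2afy_KO. The labels do not state which part of the gene was removed, so this count does not check the genotype labels.

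Flt3, the receptor of lymphoid-primed progenitors, had 1224.5, 892, 937 and 1034 CPM in H2afy_KO pools 1 to 4, against 850, 1024, 1057 and 990.4 CPM in H2afy_WT pools 1 to 4. The groups overlapped, with both the highest value in H2afy_KO 1 and the lowest in H2afy_WT 1. Its log2 fold change was 0.06 (SE 0.14, 95% interval -0.25 to 0.37, edgeR adjusted p = 0.950), and it turned to -0.04 without H2afy_KO 1 and to -0.01 without H2afy_WT 1.

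Kit, the receptor for stem cell factor, had 246, 252, 278 and 250.4 CPM in H2afy_KO pools 1 to 4, against 366, 294, 293 and 277 CPM in H2afy_WT pools 1 to 4. Only H2afy_KO 3, by a margin of under 2 CPM over H2afy_WT 4, kept the groups from parting, and Kit was lower in H2afy_KO in each of the 4 same-numbered comparisons. What a shared number marks is not stated in the labels, here and for the genes below. On the log2 scale the fold change was -0.26 (SE 0.13, 95% interval -0.54 to 0.02, edgeR unadjusted p = 0.0672, adjusted p = 0.685). Spread within genotypes was small: the SD on the log2 scale was 0.14, and only 6.97% of tested genes had a smaller one.

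Ly6d, a small lipid-anchored protein of the Ly6 family and the marker of B-biased progenitors, had 749, 651, 1157 and 1231 CPM in H2afy_KO pools 1 to 4, against 729, 608, 640.3 and 977 CPM in H2afy_WT pools 1 to 4. H2afy_KO 3 and 4 stood above every H2afy_WT pool, and H2afy_KO 1 and 2 lay within the H2afy_WT range. Ly6d was higher in H2afy_KO in each of the 4 same-numbered comparisons, by 0.040, 0.098, 0.85 and 0.33 on the log2 scale for numbers 1 to 4. The log2 fold change was 0.36 (SE 0.23, 95% interval -0.15 to 0.87, edgeR unadjusted p = 0.15, adjusted p = 0.754). With the replicate block it was 0.33 (SE 0.14, edgeR unadjusted p = 0.0435, adjusted p = 0.399). Without H2afy_KO 3 and 4 it turned to -0.07 (SE 0.21, edgeR adjusted p = 0.995). In the edgeR fit with the replicate block the unadjusted p was 0.0225 for Cd24a, 0.0502 for Kit and 0.0509 for Ptprc, and larger for the other members.

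Ly6a, which encodes Sca-1, varied most of the 9. It had 92.1, 95.6, 618 and 397 CPM in H2afy_KO pools 1 to 4, against 99.9, 69.5, 156 and 150.2 CPM in H2afy_WT pools 1 to 4. H2afy_KO 3 and 4 were far above all other pools, while H2afy_KO 1 and 2 lay within the H2afy_WT range. Within H2afy_KO the highest pool was 6.70 times the lowest, against 2.24 times within H2afy_WT, and the SD within genotypes exceeded that of 92.2% of tested genes. The log2 fold change of 1.34 (SE 0.71, 95% interval -0.35 to 3.03, edgeR adjusted p = 0.718) became -0.33 (SE 0.31, edgeR adjusted p = 0.982) without H2afy_KO 3 and 4. With the immunoglobulin share as a covariate it was 0.86 (SE 0.39, edgeR adjusted p = 0.598).

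**Figure D2:**
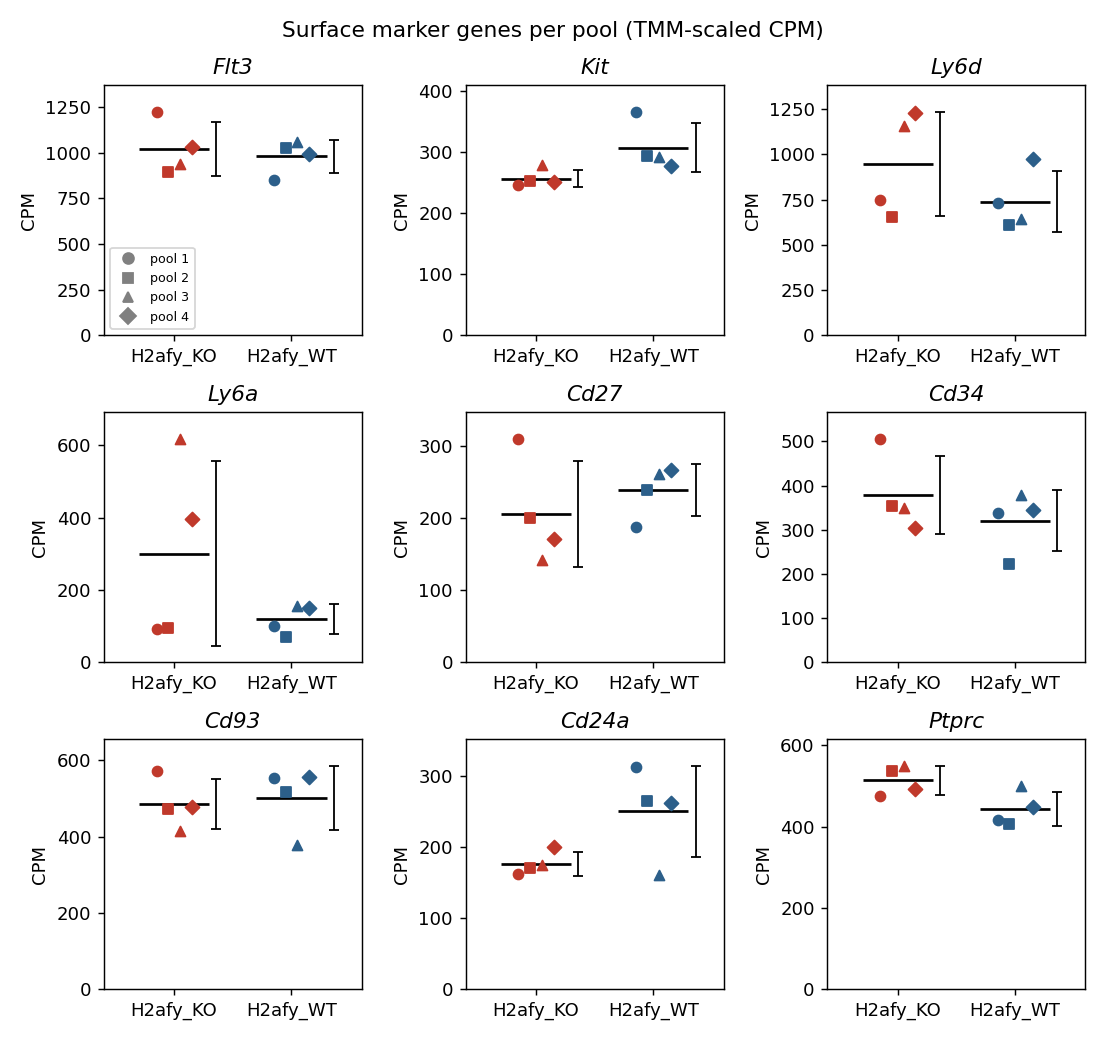
TMM-scaled CPM of each surface gene by pool, H2afy_KO left and H2afy_WT right in each panel; marker shape gives the replicate number, the horizontal bar the mean and the error bar 1 SD over 4 pools. H2afy_KO and H2afy_WT overlap in all 9 panels, Kit by a single pool, and the 2 high Ly6a values of 618 and 397 CPM belong to H2afy_KO 3 and 4.

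Cd27, a receptor of the tumor necrosis factor family carried by multipotent and lymphoid progenitors, had 310.5, 201, 142 and 172 CPM in H2afy_KO pools 1 to 4, against 188, 239, 262 and 267 CPM in H2afy_WT pools 1 to 4. H2afy_KO 1 held the highest value and H2afy_KO 3 and 4 the lowest, so the spread within H2afy_KO spanned the whole range of H2afy_WT. Its log2 fold change was -0.21 (SE 0.23, edgeR adjusted p = 0.862), and 0.11 (SE 0.21, edgeR adjusted p = 0.995) without H2afy_KO 3 and 4.

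Cd34, a sialomucin of early progenitors, had 506, 353, 350.3 and 305 CPM in H2afy_KO pools 1 to 4, against 339, 221, 379 and 344 CPM in H2afy_WT pools 1 to 4. The groups overlapped, with the extremes in H2afy_KO 1 and H2afy_WT 2. On the log2 scale the fold change was 0.24 (SE 0.20, 95% interval -0.21 to 0.68, edgeR adjusted p = 0.816). It was 0.06 to 0.33 with each pool left out in turn, with adjusted p-values above the threshold in each case.

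Cd93, a lectin-like receptor of early B-lineage cells and progenitors, had 572, 472, 416 and 478 CPM in H2afy_KO pools 1 to 4, against 553, 516, 379 and 556 CPM in H2afy_WT pools 1 to 4. The 2 genotypes covered nearly the same range. The log2 fold change was -0.05 (SE 0.16, 95% interval -0.40 to 0.30, edgeR adjusted p = 0.966). Its sign turned without H2afy_KO 3 (0.02), without H2afy_WT 4 (0.01) and without both H2afy_KO 3 and 4 (0.07).

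Cd24a, a small lipid-anchored sialoprotein known as heat-stable antigen that rises as B-lineage cells mature from progenitors, had the smallest p of the 9. It had 162, 169.8, 174 and 200.3 CPM in H2afy_KO pools 1 to 4, against 312, 265, 161 and 261 CPM in H2afy_WT pools 1 to 4. The 4 H2afy_KO pools lay close together, below 3 of the 4 H2afy_WT pools, and H2afy_WT 3 was below all of them. The mean in H2afy_KO was 70.6% of that in H2afy_WT, with a log2 fold change of -0.50 (SE 0.19, 95% interval -0.91 to -0.09, edgeR unadjusted p = 0.0210, adjusted p = 0.552). The fold change kept its negative sign under all 19 alternatives, from -0.66 to -0.37, and the smallest adjusted p was 0.119, from DESeq2 with the replicate block. Reads from the stretches in capitals in its coding sequence, or from the 962 shared bases of its untranslated parts, could also come from the copy on chromosome 14. Whether the values include such reads or leave them out is not stated.

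Ptprc, which encodes the phosphatase CD45, had 476, 537, 549 and 493 CPM in H2afy_KO pools 1 to 4, against 417, 406, 500.1 and 448 CPM in H2afy_WT pools 1 to 4. H2afy_KO was higher in each of the 4 same-numbered comparisons, but H2afy_WT 3 lay above H2afy_KO 1 and 4. Its log2 fold change was 0.21 (SE 0.12, 95% interval -0.06 to 0.49, edgeR adjusted p = 0.725). Its SD within genotypes was 0.12 on the log2 scale, and 3.58% of tested genes had a smaller one. The B220 form used to sort B cells is a splice form of this gene, and counts per gene cannot tell the splice forms apart.

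**Figure D3:**
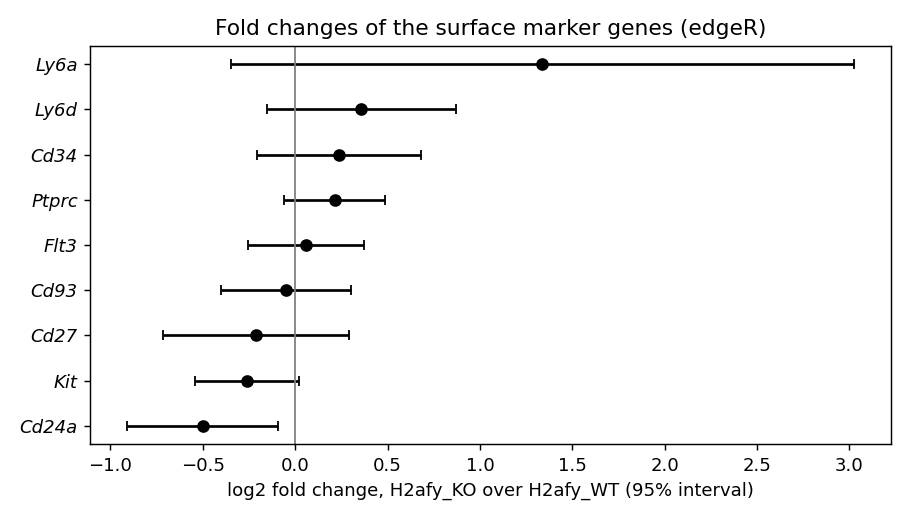
Log2 fold changes, H2afy_KO over H2afy_WT, of the 9 surface genes from the edgeR fit over all genes; points are estimates and bars 95% intervals from the SE and its degrees of freedom, not adjusted for the number of genes. The interval leaves out 0 for Cd24a (-0.91 to -0.09), and the widest is that of Ly6a (-0.35 to 3.03).

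Ratios of surface genes within a pool do not depend on how libraries are scaled, which matters here since immunoglobulin transcripts took from 0.402% to 39.0% of the counts of a pool. The pairs were chosen with earlier results known, so the ratios are described with no test. The groups overlapped in all 10 ratios computed. The log2 ratio of Ly6d to Kit was 1.605, 1.37, 2.05 and 2.30 in H2afy_KO pools 1 to 4, against 0.99, 1.05, 1.13 and 1.82 in H2afy_WT pools 1 to 4. All H2afy_KO pools lay above 3 of the H2afy_WT pools, and H2afy_WT 4 lay above 2 of the H2afy_KO pools. The difference of the means, H2afy_KO minus H2afy_WT, was 0.58, and 0.43 to 0.77 with each pool left out in turn. It was not computed without both H2afy_KO 3 and 4, which held the highest ratios, 2.05 and 2.30. The log2 ratio of Kit to Flt3 averaged -1.98 ± 0.25 in H2afy_KO and -1.68 ± 0.31 in H2afy_WT (SD, n = 4 each), a difference that rested partly on H2afy_WT 1 at -1.21. Without that pool the difference of -0.31 became -0.15.

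The log2 ratio of Cd24a to Cd34, a later against an earlier marker, was -1.65, -1.06, -1.01 and -0.61 in H2afy_KO pools 1 to 4, against -0.12, 0.26, -1.24 and -0.40 in H2afy_WT pools 1 to 4. It was lower in H2afy_KO than in 3 of the 4 H2afy_WT pools, and H2afy_WT 3 fell among the H2afy_KO values. The ratio of Cd34 to Kit averaged 0.54 ± 0.35 in H2afy_KO and 0.04 ± 0.37 in H2afy_WT (log2, SD, n = 4 each). The remaining ratios differed by less, between -0.32 and 0.28 on the log2 scale, except that of Ly6a to Kit at 1.19, which H2afy_KO 3 and 4 carried with 1.15 and 0.67 against -1.42 and -1.40 in H2afy_KO 1 and 2.

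**Figure D4:**
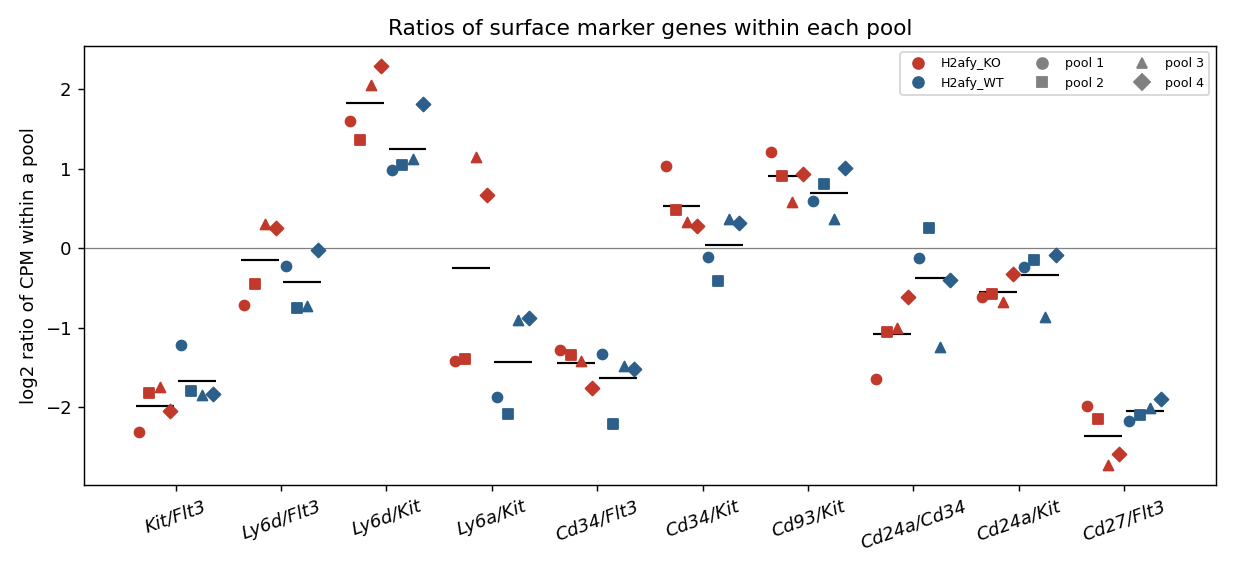
Log2 ratios of CPM between 2 surface genes within each pool, H2afy_KO in red to the left and H2afy_WT in blue to the right; marker shape gives the replicate number and the bar the mean of 4 pools. The groups overlap in all 10 ratios, and the means of Ly6d/Kit are 1.83 in H2afy_KO and 1.25 in H2afy_WT.

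Ly6a followed the immunoglobulin content of the pools. Immunoglobulin genes took 0.402%, 10.0%, 39.0% and 33.4% of counts in H2afy_KO pools 1 to 4, against 3.47%, 0.948%, 19.5% and 12.9% in H2afy_WT pools 1 to 4. Within each genotype the 4 pools stood in the same order by Ly6a CPM as by this share. Over the 8 pools Pearson's r on the log2 scales was 0.78 (exact permutation p = 0.0268, adjusted 0.134 over 10 relations). Spearman's rho was 0.95 (exact permutation p = 0.00114, adjusted 0.0114). The plan held Pearson's r as a description with no test, and the rho and the permutation tests were added to it. How many of all genes followed the share this closely was not computed. Leaving out H2afy_KO 1 and H2afy_WT 2, whose shares lay farthest from the median, gave r = 0.86. Without H2afy_KO 3 and 4, a choice made after seeing the data, rho over 6 pools was 0.89 (exact permutation p = 0.0333) and r was 0.77 (exact permutation p = 0.0847). With 4 pools per genotype no r is given within a genotype.

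The 14 measured markers of plasma and mature B cells summed to 415, 5557, 20408 and 17367 CPM in H2afy_KO pools 1 to 4, against 2464, 823, 9228 and 6568 CPM in H2afy_WT pools 1 to 4, and 0 of them were without counts. The summed level thus stood in the same order as Ly6a within each genotype. Of these 14 genes 13 had a positive log2 fold change, 0 passed the edgeR test, and the median was 1.25, or -0.35 without H2afy_KO 3 and 4. The immunoglobulin J chain gene Igj made up most of the sum in 6 of the 8 pools, with 32.4, 5055, 18967 and 16323 CPM in H2afy_KO pools 1 to 4, against 1895, 282, 8638 and 5916 CPM in H2afy_WT pools 1 to 4. Sdc1, the plasma cell syndecan, had 35.3, 53.2, 151 and 118 CPM in H2afy_KO pools 1 to 4, against 36.8, 37.9, 40.3 and 36.7 CPM in H2afy_WT pools 1 to 4. The 12 dendritic cell markers, with 11 positive fold changes and 0 called (1 higher with the replicate block, beside 0.0292% of all genes), summed to 1214 to 1682 CPM in H2afy_KO and 918 to 1346 CPM in H2afy_WT. The part of these other cells in the Ly6a values was not tested.

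Other surface genes had a weaker relation to the immunoglobulin share, and with each of them the adjusted exact permutation p was above 0.2. Cd93 had r = -0.67 (exact permutation p = 0.0733, adjusted 0.206), Cd27 r = -0.63 (exact permutation p = 0.10, adjusted 0.206) and Ly6d r = 0.59 (exact permutation p = 0.121, adjusted 0.206), in each case over 8 pools. Without H2afy_KO 1 and H2afy_WT 2 these r were -0.63, -0.31 and 0.64. Ptprc had r = 0.59 (exact permutation p = 0.123, adjusted 0.206), and 0.70 without those pools. Leaving the same pools out turned Flt3 to r = 0.69, against -0.43 over all 8. It moved Kit to -0.70, against -0.07, and Cd24a to -0.69, against -0.20, while Cd34 stood at -0.13, against -0.10. The values for Flt3, Kit and Cd24a thus rested on those 2 pools. Ly6d and Ly6a went together at r = 0.87 (exact permutation p = 0.00672, adjusted 0.0672; Spearman's rho 0.67, exact permutation p = 0.0831, adjusted 0.208). That relation rested on H2afy_KO 3 and 4, since r was 0.51 without these 2 pools.

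**Figure D5:**
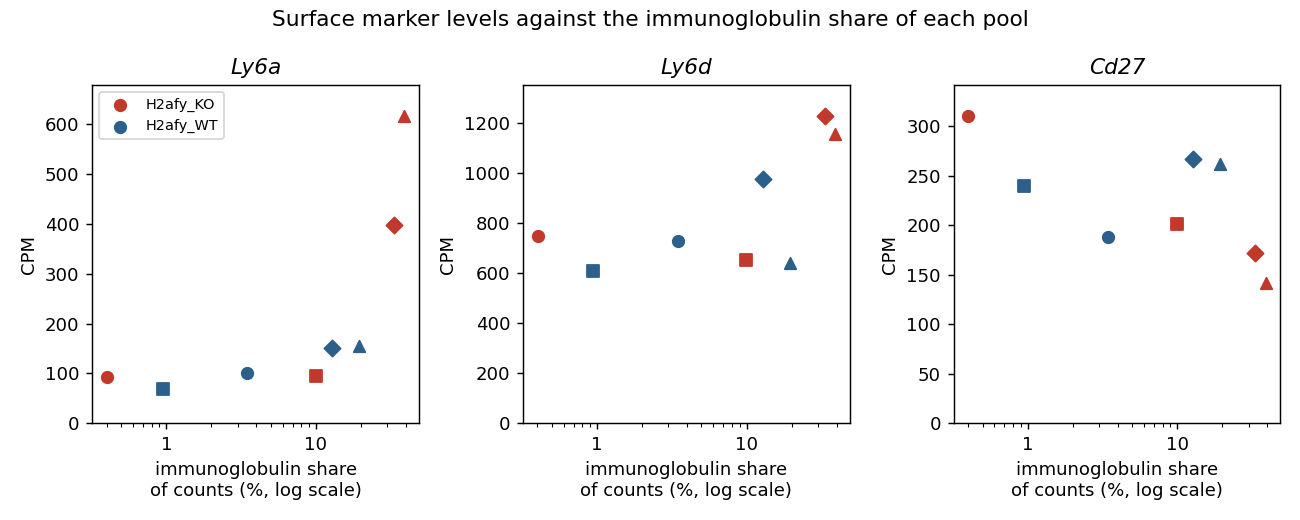
CPM of Ly6a, Ly6d and Cd27 against the share of all counts from immunoglobulin genes (percent, log scale) in each pool, H2afy_KO in red and H2afy_WT in blue, marker shape giving the replicate number. Ly6a is highest in H2afy_KO 3 and 4, the pools with shares of 39.0% and 33.4%, and Cd27 is lowest there at 142 and 172 CPM.

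Genes next to Ly6a in the Ly6 cluster of chromosome 15 showed the same pools high, as seen after their values were known. Ly6c2, which encodes the monocyte and plasma cell antigen Ly6C, had 14.1, 44.2, 983 and 409.7 CPM in H2afy_KO pools 1 to 4, against 84.2, 16.4, 104 and 267 CPM in H2afy_WT pools 1 to 4. Ly6i had 0.413, 2.13, 15.5 and 12.7 CPM in H2afy_KO pools 1 to 4, against 1.28, 0.302, 4.39 and 2.63 CPM in H2afy_WT pools 1 to 4. Ly6c1 had 1.24, 2.65, 16.8 and 6.71 CPM in H2afy_KO pools 1 to 4, against 2.40, 1.13, 3.18 and 2.56 CPM in H2afy_WT pools 1 to 4. These near relatives share windows with Ly6a, and their reads cannot be fully told apart from it. Ly6e, on the opposite strand of the cluster, was the most abundant of the family and even across pools, with 2266 to 3080.4 CPM in H2afy_KO and 2475 to 2882 CPM in H2afy_WT. Of the 23 genes in the Ly6 family list 10 were tested and 0 passed, with a median log2 fold change of 0.27. The lowest p was that of Lypd6b, near 1 CPM (log2 fold change -2.36, SE 0.74, edgeR adjusted p = 0.473).

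The 9 genes did not move as a block over the pools. Of the 36 pairs, 2 had r above 0.7 and 1 had r below -0.7 in log2 CPM over the 8 pools, which share library depth and composition, and 15 had an absolute r under 0.3. The high pairs were Ly6d with Ly6a (0.87) and Kit with Cd24a (0.70), and the opposed pair was Cd24a with Ptprc (-0.84). Taken about the genotype means, Ly6d with Ly6a had r = 0.84, Cd93 with Ptprc -0.84, Flt3 with Cd27 0.79 and Cd24a with Ptprc -0.70, while Kit with Cd24a was at 0.43. Among 13713 other tested genes, those most like Ly6a over the 8 pools were Tapbpl and Slc3a2 (r = 0.99 each), and those most like Ly6d were C230066G23Rik and Chst12 (r = 0.97 each). Slc3a2 had 55.9, 59.2, 282 and 179.9 CPM in H2afy_KO pools 1 to 4, against 56.5, 45.2, 85.7 and 69.3 CPM in H2afy_WT pools 1 to 4. Kit was followed most closely by Cnot2 (r = 0.96) and Mphosph9 (r = 0.95), Flt3 by Zfp319 (0.95) and Pctp (0.93), Cd27 by Snai3 and Itfg3 (0.96 each), and Cd34 by Paqr5 (0.99) and Arl6 (0.97). For Cd93 the nearest were Clec2f-ps and Rprd1b (0.97 each), for Cd24a Ppp1r3b and Tfdp2 (0.96 each), and for Ptprc RP23-26J4.2 and March1 (0.98 each). With 8 pools and this many genes, such values of r describe likeness in these libraries only.

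The ligands of these receptors were barely expressed in the sorted cells. Of Kitl, Flt3l, Il7 and the Cd27 ligand gene Cd70, 3 were tested, and the 4 together summed to 0.802 to 2.67 CPM in H2afy_KO and 0.528 to 3.31 CPM in H2afy_WT. Flt3l averaged 0.549 ± 0.143 CPM in the H2afy_KO pools, against 0.394 ± 0.185 CPM in the H2afy_WT pools (SD, n = 4 each).

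Of 43 tested genes that carry signals of Kit and Flt3, 0 passed the edgeR test (23 with a positive fold change, median log2 fold change 0.01, and 6 at an unadjusted p under 0.05, beside 7.58% of all genes). The smallest p-values were those of Foxo1, a transcription factor that these receptors restrain through AKT, at 32.7 ± 6.29 CPM in the H2afy_KO pools, against 61.2 ± 19.1 CPM in the H2afy_WT pools (SD, n = 4 each; log2 fold change -0.90, SE 0.22, edgeR adjusted p = 0.419), and of the ERK phosphatase Dusp6, at 89.8 ± 23.0 CPM in the H2afy_KO pools, against 149.6 ± 33.9 CPM in the H2afy_WT pools (log2 fold change -0.74, SE 0.22, edgeR adjusted p = 0.473). Groups did not overlap in Foxo1 and did in Dusp6. With the replicate block 1 of these 43 genes was called lower, beside 0.0802% of all genes, and with DESeq2 1 as well, beside 0.54%. DESeq2 with the block called 1 higher and 4 lower, beside 1.7% and 1.61% of all genes. Among 12 tested partners of these surface proteins 0 passed and 3 had a positive fold change (median -0.08). Lgals1, a lectin that binds CD45, and Ptprcap, a CD45-associated protein, had the smallest p, with log2 fold changes of 0.41 (SE 0.15) and 0.45 (SE 0.20) and edgeR adjusted p-values of 0.57 and 0.637.

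Of the 32 tested other surface genes of progenitor sorting, 0 passed in the edgeR fit, 20 had a positive fold change and the median was 0.08. DESeq2 called 2 higher and 2 lower, beside 0.335% and 0.54% of all genes. With the replicate block it called 3 higher and 3 lower, beside 1.7% and 1.61%. Itgb7, an integrin chain of lymphocyte homing, averaged 17.1 ± 6.05 CPM in the H2afy_KO pools, against 5.41 ± 2.40 CPM in the H2afy_WT pools (SD, n = 4 each; log2 fold change 1.66, SE 0.34, edgeR adjusted p = 0.340). Csf3r, the granulocyte colony-stimulating factor receptor, averaged 18.8 ± 3.33 CPM in the H2afy_KO pools, against 33.0 ± 5.37 CPM in the H2afy_WT pools (SD, n = 4 each; log2 fold change -0.81, SE 0.18, edgeR adjusted p = 0.363). Il7r, the remaining receptor of the common lymphoid gate, had 321, 363, 336 and 344 CPM in H2afy_KO pools 1 to 4, against 446, 449.9, 384 and 424 CPM in H2afy_WT pools 1 to 4. All H2afy_KO values lay below all H2afy_WT values, at a log2 fold change of -0.32 (SE 0.12, edgeR adjusted p = 0.537).

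The labelled cell type was read against markers. All 18 markers of B-biased lymphoid progenitors were detected, 0 of them without counts, and summed to 6174 to 7724 CPM in H2afy_KO and 9170 to 11746 CPM in H2afy_WT. Dntt alone had 3298 to 5067 CPM of that sum in H2afy_KO and 5010 to 6235 CPM in H2afy_WT, with overlapping groups. Of these 18 genes 0 passed the edgeR test, 10 had all H2afy_KO values below all H2afy_WT values beside 2.35% of all genes, and the median log2 fold change was -0.86. The list was chosen with earlier results of these data known, so its counts beside all genes are a description and no independent support. The replicate block gave 1 of the 18 as lower, beside 0.0802% of all genes. DESeq2 called 4 lower, beside 0.54% of all genes, and 12 lower with the block, beside 1.61%. With smallest p among them, Blnk, an adaptor of B-cell receptor signalling, and the transcription factor gene Lef1 had log2 fold changes of -0.78 (SE 0.20) and -1.95 (SE 0.55), with edgeR adjusted p-values of 0.426 and 0.473. The 9 surface genes, with 0 non-overlapping members and a median of 0.06, stood beside these markers in the same fit, and the difference between the 2 lists was not tested. RNA of a mature B cell marker was also present. Ms4a1, which encodes CD20 of mature B cells, had 0.381, 16.0, 48.3 and 31.6 CPM in H2afy_KO pools 1 to 4, against 5.94, 2.00, 13.1 and 16.9 CPM in H2afy_WT pools 1 to 4, and was thus highest in the pools with high Ly6a. Stem and multipotent markers summed to 205 to 262 CPM in H2afy_KO and 252 to 357 CPM in H2afy_WT over 13 tested genes, 0 of them called, with a median of -0.45. Angpt1 and Hoxa9 had the smallest p there, with log2 fold changes of -0.71 (SE 0.18) and -0.45 (SE 0.16) and edgeR adjusted p-values of 0.426 and 0.510.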

How the data were processed

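RNA-seq counts per Ensembl gene were deposited for 4 H2afy_KO and 4 H2afy_WT pools of sorted bone marrow progenitors. Per the labels' protocols, cDNA was made with a SMARTer Ultra Low kit and read as single reads of 50 bases. That kit is known not to mark strand. The submitters' processing notes name HISAT2 2.0.6 and mm9. The authors deposited whole-number counts, not normalized, and which program counted them is not stated in the labels. GENCODE M1 (NCBIM37) named 37205 of 37991 gene IDs, and of 232 list symbols 227 matched. Where IDs shared a symbol, the one with most counts kept it.

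After filterByExpr with a minimum count of 10, 13722 genes were fitted with TMM factors in edgeR 4.0.16 by its robust quasi-likelihood test. P-values were adjusted by Benjamini-Hochberg, and 0.05 was the threshold. DESeq2 (1.42.0) and limma-voom (limma 3.58.1) were alternatives in R 4.3.3. CPM use TMM-scaled library sizes, log2 CPM a prior count of 2, and RPKM the union of annotated exons. Single relations were tested by exact permutation, 2-sided, which the plan had not set. No pool repeated another, since chi-square divided by its degrees of freedom over genes, among 28 pairs of pools, was at least 101.

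The members and lists were chosen with earlier results of these data known. Named genes were the 9 members, H2afy, Il7r, Ms4a1, from each list up to 4 genes past the threshold or else the 2 with the smallest p, and the 2 genes most correlated with each member. A gene that the rule also names is not reported here. Igj, Ly6c2, Ly6i, Ly6e, Dntt, Nkg7 and Pecam1 were looked up after values were seen. Replicate numbers are shared between genotypes. Deviations from the group means of same-numbered pools correlated across genes at 0.19, 0.19, 0.36 and 0.41. All were above 0.1, which met the rule applied for reading the numbers as pairs but does not establish a pairing. Some pools of unlike number correlated more: H2afy_KO 1 with H2afy_WT 2 at 0.52 and H2afy_KO 3 with H2afy_WT 4 at 0.45. The labels do not say what a number marks. The main edgeR fit held no block for the number, so its SEs, intervals and p-values leave any pairing out. The replicate block was an alternative.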

Additional observations from a re-analysis of the deposited data

Results flagged for a closer look

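The ratio of Kit to Flt3 in H2afy_WT 1, at -1.21 on the log2 scale, lay far from the other 3 H2afy_WT pools (-1.80, -1.85 and -1.84). It combined the highest Kit (366 CPM) and the lowest Flt3 (850 CPM) of all pools. The log2 ratio of Ly6d to Kit in H2afy_WT 4, at 1.82, lay far above the other 3 H2afy_WT pools (0.99, 1.05 and 1.13), with Ly6d at 977 CPM. Both gaps, 0.918 and 0.834 of the range of the 4 pools, passed Dixon's 95% critical value. Of 40 such groups looked at, chance alone gives about 1 in 20.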

How the results depend on the processing

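The 9 surface genes were refitted under 19 alternatives each. In 171 values 0 passed the threshold and 163 kept their sign. The sign turned without H2afy_KO 3 and 4 in Ly6d (-0.066), Ly6a (-0.33), Cd27 (0.11) and Cd93 (0.072). With single pools left out Flt3 ranged from -0.043 to 0.12 and Cd93 from -0.16 to 0.022. The replicate block changed no call of the 9 genes: Kit was at an adjusted p of 0.419 and Cd24a of 0.322 with it. DESeq2 with the replicate block was added after seeing the data.

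Genes called over the whole table, higher then lower, were 0 and 0 as reported, 49 and 79 with DESeq2, 1 and 4 with upper-quartile factors, 7 and 9 with no filter, 0 and 2 with at least 5 CPM in 4 samples, 1 and 3 with limma-voom, 4 and 11 with the replicate block, 0 and 3 without immunoglobulin genes, 1 and 2 with the immunoglobulin share as covariate, and 249 and 236 with DESeq2 and the block. With single pools left out the lower count was 0 to 1.

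Among the lists, where 0 genes were called as reported, DESeq2 called lower 1 signalling, 2 other surface, 4 sorted-cell, 1 stem, 1 granulocyte and 1 erythroid gene, and higher 2 other surface, 1 granulocyte, 4 dendritic and 1 T cell gene. Upper-quartile factors, limma-voom and the immunoglobulin covariate each called 1 granulocyte gene higher, and no filter 1 each of the other surface, granulocyte and dendritic genes. The replicate block called lower 1 signalling and 1 sorted-cell gene, and higher 1 granulocyte and 1 dendritic gene. DESeq2 with the block called lower 4 signalling, 3 other surface, 1 lineage, 12 sorted-cell, 1 stem, 1 plasma and mature B, 1 granulocyte and 1 erythroid gene, and higher 1 signalling, 3 other surface, 1 granulocyte, 5 dendritic and 1 T cell gene. Medians moved for the Ly6 family with no filter (-0.91), for lineage targets (-0.29) and plasma and mature B markers (-0.35) without H2afy_KO 3 and 4, and for signalling genes with single pools left out (-0.049 to 0.16). The cause of these shifts was not tested. Of the ratios within pools, Cd34 to Flt3 ranged from -0.00 to 0.29 with single pools left out, and the other 9 kept their sign.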

Other observations

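Markers of granulocytes and monocytes were spread over the pools in another order than the immunoglobulin genes. The 15 tested markers summed to 1169, 2034, 3459 and 3234 CPM in H2afy_KO pools 1 to 4, against 6897, 1580, 2255 and 10376 CPM in H2afy_WT pools 1 to 4, highest in H2afy_WT 4 and 1. Of these genes 0 passed the edgeR test (1 higher with the replicate block), 2 of the 15 had a positive log2 fold change, and the median was -0.74. Cd68, a lysosomal protein of macrophages, went against most of the list and came nearest to the threshold at 1.45 (SE 0.21, edgeR adjusted p = 0.0579). Erythroid and megakaryocyte markers, also high in the same pools, summed to 14.3, 60.8, 98.5 and 86.6 CPM in H2afy_KO pools 1 to 4, against 172, 29.7, 86.3 and 321 CPM in H2afy_WT pools 1 to 4, with 0 of 11 called, a median of -1.25 and Pf4 at -2.84 (SE 0.74) and Vwf at -1.68 (SE 0.60).

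T and natural killer markers summed to 232 to 415 CPM in H2afy_KO and 333 to 410 CPM in H2afy_WT (0 of 11 called, median -0.30), with Zap70 at 1.37 (SE 0.35) and Lat at -0.46 (SE 0.16). Nkg7 made up most of that sum, at 179 to 371 CPM in H2afy_KO and 277 to 344 CPM in H2afy_WT. Stroma and endothelium markers summed to 262 to 295 CPM in H2afy_KO and 221 to 301 CPM in H2afy_WT (0 of 7 called, median -0.53), with Sparc at -1.24 (SE 0.58) and under 2 CPM on average in both genotypes. Pecam1 made up most of that sum, at 257 to 286 CPM in H2afy_KO and 216 to 285 CPM in H2afy_WT. Among the dendritic markers, the transcription factor gene Irf8 was at 1.02 (SE 0.15, edgeR adjusted p = 0.0722) and Cox6a2 at 0.61 (SE 0.13, edgeR adjusted p = 0.360), and Cd37 of the mature B cell list was at -0.46 (SE 0.17, edgeR adjusted p = 0.527). Of 15 targets of lineage antibodies 13 were tested and 0 called, with a median of 0.48.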
